A study of Mus musculus with 12 samples.

Results

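The 10 genes described here encode aggrecan (Acan), its link protein (Hapln1), versican (Vcan), hyaluronan synthase 2 (Has2), the hyaluronan receptor CD44 (Cd44), the hyaluronidases Hyal1, Hyal2 and Cemip, lubricin (Prg4) and TSG-6 (Tnfaip6). They were picked by gene symbol, all 10 were found among the 17922 genes of the deposited expression table, and all 10 passed the filter on low counts in each comparison. RNA-seq libraries came from rib chondrocytes of postnatal and fetal mice, cultured overnight after collagenase digestion. The LDH knockout carried Col2-Cre, Ldha(fl/fl) and Ldhb+/- and was compared with its littermate controls at postnatal day 5. The Acly knockout carried Col2-Cre and Acly(fl/fl) and was compared with its littermate controls at E18.5. Col2-Cre is a recombinase driven by regulatory sequence of the type II collagen gene, so deletion was directed at cartilage cells and other cells of the dish would keep the gene. The strain was C57BL/6-dominant mixed in all 4 groups of 3 samples, the exact genotype of the controls was not given in the sources used here, and age and mouse line coincide between the LDH and Acly sets.

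Aggrecan is the large proteoglycan of cartilage. Many aggrecan molecules sit along a strand of hyaluronan, each fixed by a link protein, and the sulfated chains on the aggrecan core hold the water that lets cartilage resist compression. Versican is a related hyaluronan-binding proteoglycan found in looser, earlier and perichondrial matrix. The hyaluronan strand is made at the cell surface by synthases such as Has2, is held there by CD44, and is cut by hyaluronidases and by Cemip.

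The stretch of 250 bases before the annotated start is shown for the members that passed the test in the LDH comparison, Acan and Hyal1, and for the neighbouring genes Hapln1 and Vcan on chromosome 13, whose levels are set against Acan below. Sequences are from RefSeq, build GRCm38.p6, written 5′ to 3′ on the strand of the gene. Of the 10 genes, 8 had an entry and Has2 and Prg4 had none. The regions are chr7:79052976-79053225 (plus strand) for Acan, chr9:107576700-107576949 (plus) for Hyal1, chr13:89540386-89540635 (plus) for Hapln1 and chr13:89742513-89742762 (minus) for Vcan. Capitals mark exact matches on either strand to the SOX cores ACAATG and ACAAAG, the TATA box TATAAA, the GC box GGGCGG and the hypoxia core ACGTG.
Acan: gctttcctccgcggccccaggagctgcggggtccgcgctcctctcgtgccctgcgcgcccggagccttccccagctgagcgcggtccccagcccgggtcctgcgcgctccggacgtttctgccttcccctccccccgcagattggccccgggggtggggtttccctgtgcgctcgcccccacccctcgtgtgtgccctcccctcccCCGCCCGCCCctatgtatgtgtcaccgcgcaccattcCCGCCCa
Hyal1: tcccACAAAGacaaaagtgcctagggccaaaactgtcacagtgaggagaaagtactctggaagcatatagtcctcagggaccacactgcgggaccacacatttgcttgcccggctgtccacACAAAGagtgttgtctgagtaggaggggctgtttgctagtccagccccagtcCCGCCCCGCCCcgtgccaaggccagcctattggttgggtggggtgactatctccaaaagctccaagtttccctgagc
Hapln1: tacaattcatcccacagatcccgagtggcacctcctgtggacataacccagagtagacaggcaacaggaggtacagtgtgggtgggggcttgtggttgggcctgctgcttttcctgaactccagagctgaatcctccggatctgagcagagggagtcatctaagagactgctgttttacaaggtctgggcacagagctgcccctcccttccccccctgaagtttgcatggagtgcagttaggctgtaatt
Vcan: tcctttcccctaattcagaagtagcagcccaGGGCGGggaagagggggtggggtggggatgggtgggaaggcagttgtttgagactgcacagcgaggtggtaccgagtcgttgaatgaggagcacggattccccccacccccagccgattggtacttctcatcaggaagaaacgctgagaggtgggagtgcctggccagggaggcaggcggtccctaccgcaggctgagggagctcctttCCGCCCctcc

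The Acan window is the richest in G and C of the 4, at 74.4%, against 62.4% for Vcan, 56.0% for Hyal1, 54.4% for Hapln1 and a median of 52.4% over 32851 promoters of the same length. Acan holds 3 GC boxes, all within 44 bases of the start and 2 of them overlapping. Vcan holds 2. Hyal1 holds 2 that share 1 base and also 2 copies of ACAAAG, at 246 and 129 bases before the start. The Hapln1 window holds none of the 5 motifs. For comparison, GGGCGG is present in 32.7% of the promoters, ACAAAG in 16.5%, ACAATG in 10.7%, ACGTG in 16.6% and TATAAA in 12.4%. Of the other 4 genes with an entry, Cemip has the TATA box with 2 GC boxes, Cd44 has the hypoxia core, and Hyal2 and Tnfaip6 have 1 GC box each. These matches are descriptions of the letters and say nothing of binding.

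Libraries held 26362407 to 28154143 expected counts, at which 3 counts equal 0.107 to 0.114 counts per 1000000 counts (CPM). The floor covers counting error only, and each member lay above it in each library. Ldha and Acly followed the labels: Ldha was 86.7 ± 6.64 CPM in the LDH knockout and 845 ± 51.4 in its control, and Acly was 74.2 ± 18.9 CPM in the Acly knockout and 197 ± 4.81 in its control (SD, n = 3). Ldhb, of which 1 allele was removed, was 15.1 ± 1.14 CPM in the LDH knockout against 11.7 ± 0.53 in its control, so its values ran opposite to the label, without overlap, and did not pass the test (edgeR adjusted p = 0.115). None of 12 chondrocyte markers and none of 10 fibroblast and perichondrial markers was at 0 throughout a group. In a principal component analysis, Acly knockout replicate 2 stood apart from the other Acly libraries, at 35.4 on the first component against 60.4 to 70.8. The summed level of 4 Y-linked genes was at most 0.037 CPM in the LDH knockouts and 93.0, 102 and 0.590 CPM in LDH control replicates 1, 2 and 3. The corresponding Acly values were 0.075, 74.3 and 82.8 CPM for knockouts 1 to 3 and 0.375, 121 and 2.83 CPM for controls 1 to 3. In the LDH set all knockouts had low Y-linked signal, and control replicates 1 and 2 had high signal. Sex may therefore coincide in large part with genotype in the LDH set, and its part in the LDH differences cannot be told apart. Nothing in the labels says that samples of a group came from separate animals, so p-values measure only the spread between these samples.

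**Figure D1:**
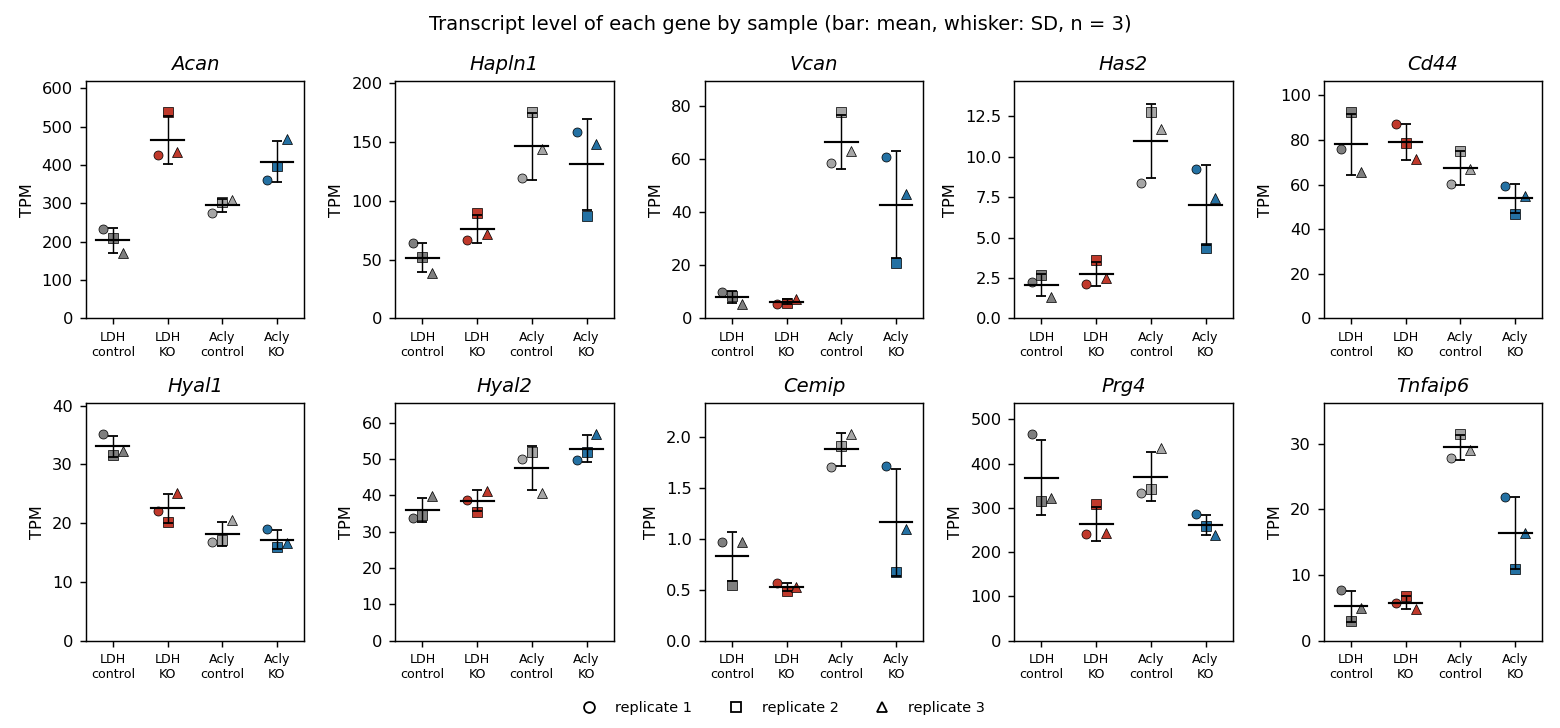
Transcripts per 1000000 (TPM, vertical axis from 0) of each of the 10 genes in the 12 samples, by group (horizontal axis). Points are samples, bars are means and whiskers SD (n = 3); Acan ranges from 170 to 233 TPM in LDH controls and from 426 to 538 in LDH knockouts, and Vcan is at 5.47 to 10.0 TPM in LDH controls and 58.4 to 77.7 in Acly controls.

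Levels of different genes were compared in TPM, which is scaled by transcript length. In LDH controls Prg4 was highest, at 369 ± 85.2 TPM, followed by Acan at 204 ± 32.1, Cd44 at 78.0 ± 13.6 and Hapln1 at 51.8 ± 12.5. The hyaluronidases Hyal2 (36.0 ± 3.24 TPM) and Hyal1 (33.0 ± 1.85) came next and their ranges overlapped, as did those of Hapln1 and Hyal2. Vcan (8.02 ± 2.33) and Tnfaip6 (5.20 ± 2.38) overlapped too, and Has2 (2.07 ± 0.70) and Cemip (0.83 ± 0.24) were lowest. Acan ranked 761 of 17922 genes by mean TPM in this group and Cemip 11921.

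The order of Acan and Prg4 was the opposite in both knockouts. In the LDH knockout Acan was at 466 ± 62.7 TPM and Prg4 at 264 ± 38.6, without overlap of their ranges. In Acly knockouts Acan was at 409 ± 53.5 TPM and Prg4 at 262 ± 23.2, again without overlap. In Acly controls Prg4 (371 ± 55.9 TPM) lay above Acan (296 ± 17.1), followed by Hapln1 (146 ± 28.3), Cd44 (67.5 ± 7.49) and Vcan (66.4 ± 10.1), the last pair overlapping. Tnfaip6 (29.5 ± 1.85 TPM), Hyal1 (18.1 ± 2.06), Has2 (10.9 ± 2.28) and Cemip (1.88 ± 0.16) closed the order, below Hyal2 (47.5 ± 6.07).

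In LDH knockout chondrocytes the aggrecan transcript rose to 234% of the control level and Hyal1 fell to 69.2%, and these were the 2 members of 10 that passed an adjusted p of 0.05. Over all 13321 genes tested, 2.49% were called, 1.43% as higher and 1.07% as lower. At an unadjusted p under 0.05 there were 5 members, against 19.6% of all genes. The median log2 fold change of the members was 0.08, against 0.01 for all genes tested. Groups did not overlap for 3 members (Acan and Hapln1 higher, Hyal1 lower), against 24.3% of all genes (11.9% higher, 12.5% lower). CPM values within a set were scaled over its 6 samples, and log2 fold changes are knockout over control from edgeR's quasi-likelihood test with Benjamini-Hochberg adjustment.

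Acan, the core protein of the aggregate, was at 899, 788 and 697 CPM in LDH controls 1 to 3 and at 1691, 2194 and 1688 CPM in the knockouts. Each knockout library was above each control library. The log2 fold change was 1.22 (SE 0.13, 95% interval 0.93 to 1.52, edgeR adjusted p = 0.00351). With the Y-linked signal as a covariate the Acan log2 fold change was 1.46 and the call was lost (edgeR adjusted p = 0.121). In the 3 knockouts against LDH control replicate 3, the samples of low Y-linked signal, it was 1.41 and the call was also lost (edgeR adjusted p = 0.0634), where the lone control is assumed to vary like the knockouts. Over all 16 alternatives the adjusted p ran from 3.40e-19 to 0.121 and the log2 fold change from 1.09 to 1.46.

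The summed level of 12 chondrocyte markers, which do not include the members, moved with Acan, at 9828 to 11435 CPM in LDH controls and 17790 to 27219 CPM in LDH knockouts. Of 11 of these markers that passed the filter, 8 were called higher and none lower. Col2a1, the type II collagen gene, made up 83.0% to 85.8% of this sum, so that a value scaled by it is close to a ratio to Col2a1. Per 100 CPM of these markers Acan was 7.86, 8.02 and 6.15 in the controls and 8.36, 8.06 and 9.49 in the knockouts, which do not overlap but approach each other at 8.02 and 8.06. Summed osteoblast markers were lower, at 2491 to 4622 CPM in knockouts against 6330 to 8749 in controls, with 3 of 7 called lower. Dmp1, the eighth, had a mean under the floor in both groups. Spp1 made up most of the osteoblast sum, with means of 3618 CPM in knockouts and 7276 CPM in controls. Summed adipocyte markers were higher, at 75.6 to 133 CPM against 37.6 to 52.4, with 6 of 8 called. Lpl, which was not called, made up most of the control sum, with means of 46.0 CPM in knockouts and 35.8 CPM in controls. The median log2 fold change of the 8 adipocyte markers was 3.86. The part of these shifts in the Acan difference was not tested. In such cultures fewer cells of a type and less RNA per cell cannot be told apart.

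Hapln1, which clamps aggrecan to hyaluronan, was at 168, 134 and 110 CPM in LDH controls and 181, 248 and 190 in knockouts. The groups did not overlap, but the lowest knockout lay close to the highest control. The log2 fold change was 0.59 (SE 0.16, 95% interval 0.23 to 0.95) and did not pass (edgeR adjusted p = 0.0905). Per 100 CPM of chondrocyte markers Hapln1 was 1.47, 1.37 and 0.966 in controls and 0.897, 0.912 and 1.07 in knockouts, so on that scale the direction was not kept and the groups overlapped.

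Vcan, the proteoglycan of looser matrix, was at 44.5, 33.9 and 19.6 CPM in LDH controls and 23.1, 24.5 and 31.5 in knockouts. The controls were more scattered than the knockouts and the groups overlapped. The log2 fold change was -0.31 (95% interval -0.86 to 0.24, edgeR adjusted p = 0.522). Its sign turned in the settings that account for Y-linked signal, to 0.59 with the covariate and 0.43 in the samples of low signal.

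**Figure D2:**
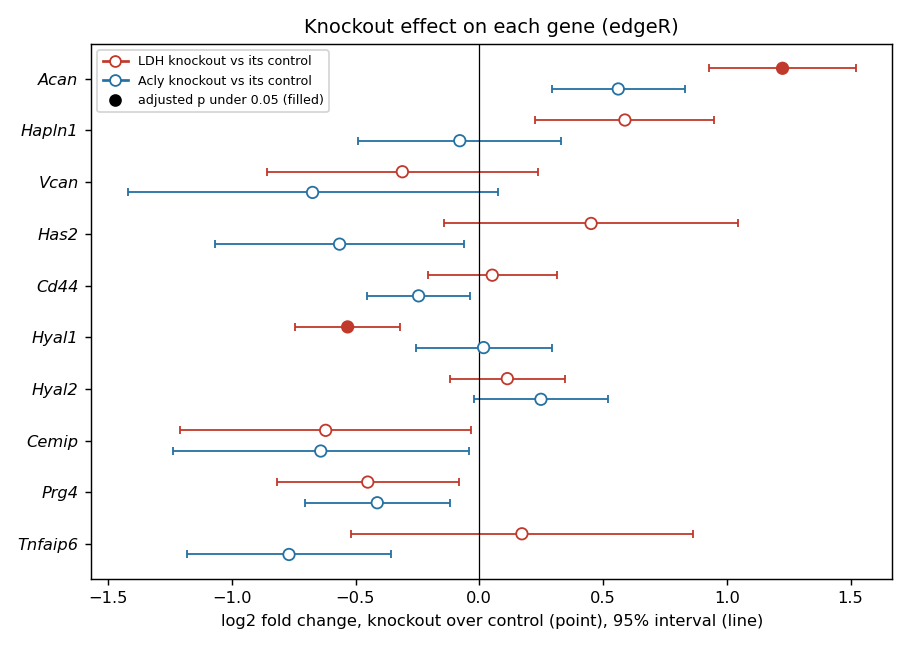
Log2 fold change of each gene (horizontal axis, knockout over control) in the LDH set (red) and the Acly set (blue), with 95% intervals from edgeR and filled points where the adjusted p is under 0.05. Acan (1.22) and Hyal1 (-0.53) in the LDH set are the filled points, and in the Acly set 7 of 10 point estimates lie below 0.

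Among the enzymes that cut hyaluronan, Hyal1, a lysosomal hyaluronidase, was at 38.8, 34.2 and 38.2 CPM in LDH controls and 25.2, 23.7 and 28.1 in knockouts. All 3 knockouts lay below all 3 controls. Hyal1 fell by 0.53 on the log2 scale (SE 0.10, edgeR adjusted p = 0.0226). The call was lost in 6 of 16 alternatives. With the Y-linked covariate the Hyal1 log2 fold change was -0.59 (edgeR adjusted p = 0.209). In the samples of low Y-linked signal it was -0.57, and the call was also lost. The other losses came with the omission of knockout replicate 1 or 2 or of control replicate 1 or 3 (edgeR adjusted p = 0.106, 0.0984, 0.0818 and 0.0668). Over all alternatives the adjusted p ran from 0.000367 to 0.209. Hyal1 overlaps Naa80 and Hyal3 in the RefSeq annotation, and since the use of strand in counting was not given, reads of these genes may have been shared. Naa80 had a log2 fold change of -0.30 (edgeR adjusted p = 0.433) and Hyal3 of -0.34 (adjusted p = 0.544).

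Hyal2, a hyaluronidase anchored at the cell surface and the neighbour of Hyal1 on chromosome 9, was at 32.6, 32.2 and 40.4 CPM in LDH controls and 38.0, 35.6 and 40.1 in knockouts. The groups overlapped and the log2 fold change was 0.11 (95% interval -0.12 to 0.35, edgeR adjusted p = 0.587). Its sign turned to -0.14 with the Y-linked covariate and -0.09 in the samples of low Y-linked signal. Cemip, needed for the breakdown of extracellular hyaluronan, was at 3.65, 2.01 and 3.83 CPM in controls and 2.18, 1.98 and 2.01 in knockouts. LDH control replicate 2 was within the knockout range, and the log2 fold change of -0.62 did not pass (edgeR adjusted p = 0.232).

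Has2, the synthase, was at 4.92, 5.69 and 3.04 CPM in LDH controls and 4.83, 8.35 and 5.52 in knockouts. The groups overlapped and the log2 fold change was 0.45 (95% interval -0.14 to 1.05, edgeR adjusted p = 0.387). Cd44, the surface receptor, was at 174, 207 and 160 CPM in controls and 206, 191 and 164 in knockouts, with a log2 fold change of 0.05 (95% interval -0.21 to 0.31, edgeR adjusted p = 0.842). Leaving out knockout replicate 1 or control replicate 3 turned its sign to -0.02 and -0.03.

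Tnfaip6, a secreted protein that moves heavy chains onto hyaluronan, was at 6.18, 2.33 and 4.21 CPM in LDH controls and 4.68, 5.78 and 3.88 in knockouts. The groups overlapped fully (log2 fold change 0.17, edgeR adjusted p = 0.801). Prg4, the lubricant of the joint surface, was at 897, 592 and 662 CPM in controls and 477, 627 and 470 in knockouts. Knockout replicate 2 lay within the control range, and the log2 fold change of -0.45 did not pass (edgeR adjusted p = 0.171). The other 5 markers of superficial and synovial cells summed to 51.0 to 76.6 CPM in controls and 40.7 to 58.5 in knockouts. Among them Pdpn was called lower (log2 fold change -0.86, edgeR adjusted p = 0.0428). Erg was higher without overlap but was not called (0.53, edgeR adjusted p = 0.163). Thbs4 (-0.20), which made up most of the sum, and Vcam1 (-0.06) were not called either. Prg4 overlaps Tpr in the annotation, and Tpr had a log2 fold change of -0.02.

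In the Acly set no member passed the test, where 0.136% of 13973 genes were called. At an unadjusted p under 0.05 there were 6 members, against 15.8% of all genes, and DESeq2 called Acan and Tnfaip6. Groups did not overlap for 5 members (Acan higher; Cd44, Cemip, Prg4 and Tnfaip6 lower), against 21.9% of all genes (10.7% higher, 11.3% lower). The median log2 fold change of the members was -0.33, and that of all genes tested was -0.00.

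Acan was at 1105, 1129 and 1200 CPM in Acly controls and 1410, 1788 and 1871 in knockouts. Each knockout library was above each control library. The log2 fold change was 0.56 (SE 0.12, 95% interval 0.29 to 0.83, edgeR adjusted p = 0.148). Over the alternatives the adjusted p ran from 0.00111, with DESeq2, to 0.572. Summed chondrocyte markers were 8453 to 9329 CPM in Acly controls and 14598 to 16798 in knockouts, with 3 of 12 called higher. Col2a1 made up 65.4% to 66.0% of the sum in controls and 72.0% to 77.6% in knockouts. The make-up of the sum therefore differed between the groups. Per 100 CPM of these markers Acan was 13.1, 12.1 and 14.0 in controls and 9.66, 10.6 and 11.2 in knockouts, so on that scale the knockouts lay below the controls.

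**Figure D3:**
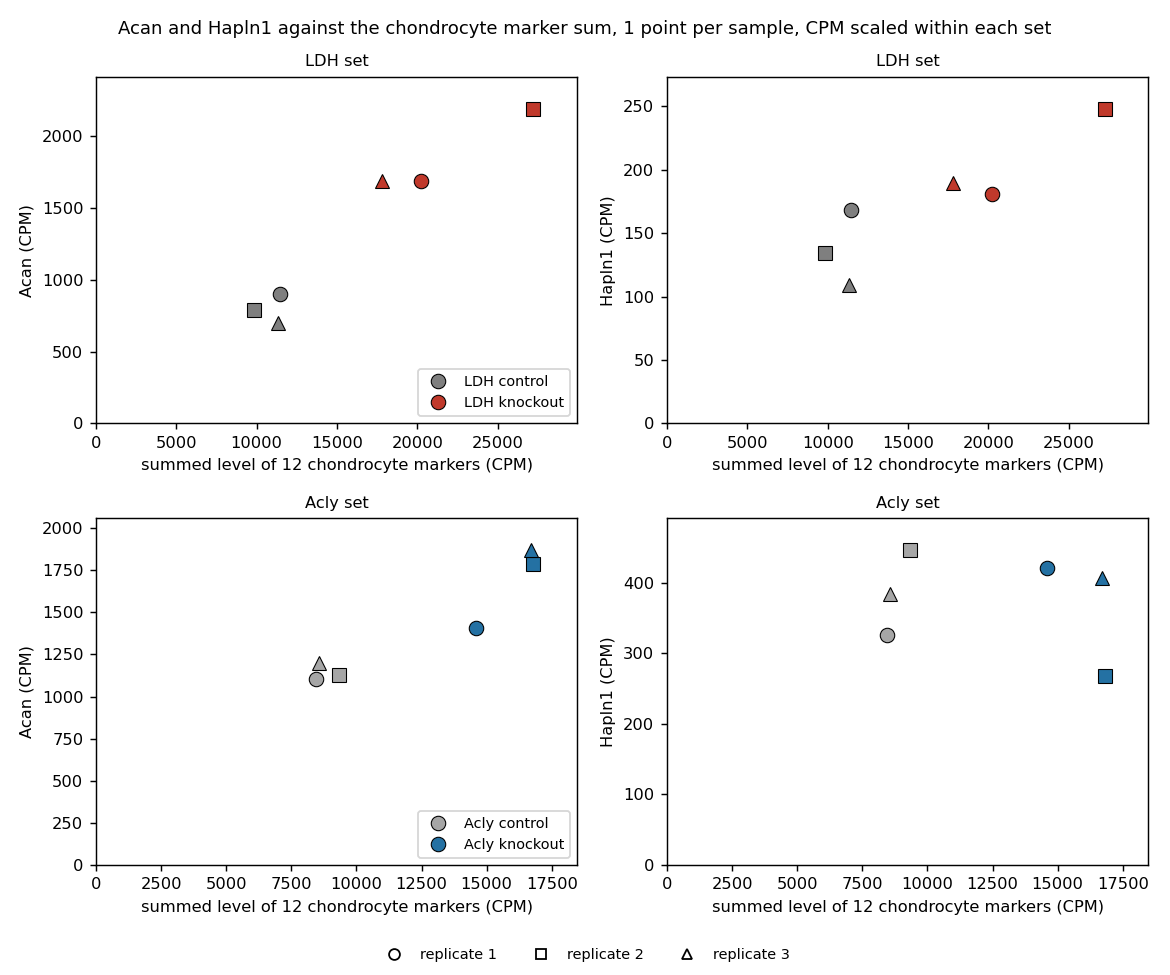
Acan (left) and Hapln1 (right) in CPM (vertical axes) against the summed CPM of 12 chondrocyte markers (horizontal axes) in the LDH set (top) and the Acly set (bottom), 1 point per sample, coloured by group with the replicate as the symbol. CPM were scaled within each set, so levels are to be compared within a row; the knockouts lie to the right of and above their controls for Acan in both sets, and the Acly groups overlap for Hapln1.

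Hapln1 was at 325, 446 and 384 CPM in Acly controls and 421, 267 and 406 in knockouts. Knockout replicate 2 was the lowest of the 6 and the groups overlapped (log2 fold change -0.08, 95% interval -0.49 to 0.33, edgeR adjusted p = 0.836). Without that library the sign turned, to 0.11. Per 100 CPM of chondrocyte markers Hapln1 was 3.8, 4.8 and 4.5 in Acly controls and 2.9, 1.6 and 2.4 in knockouts. On that scale all knockouts lay below all controls. Vcan was at 236, 314 and 250 CPM in controls and 236, 77.6 and 188 in knockouts, with a log2 fold change of -0.67 (SE 0.33, edgeR adjusted p = 0.349). Without knockout replicate 2 the Vcan value was -0.33.

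That library was the lowest of the Acly set for 6 members: Tnfaip6, Cd44, Has2, Hapln1, Vcan and Cemip. It was the lowest for 32.5% of all genes tested. Its 10 fibroblast and perichondrial markers summed to 2092 CPM, against 4453 and 4613 in the other knockouts and 4843 to 5555 in the controls. Of these 10 markers none was called in the Acly comparison. Their part in the member values was not tested.

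Tnfaip6 had the largest log2 fold change of the members in the Acly set. It was at 23.2, 24.4 and 23.5 CPM in controls and 17.8, 10.3 and 13.7 in knockouts, without overlap. The value was -0.77 (SE 0.18, 95% interval -1.18 to -0.36, edgeR adjusted p = 0.187), and -0.59 without knockout replicate 2 (edgeR adjusted p = 0.0666). Over its alternatives the adjusted p ran from 0.00925, with DESeq2, to 0.663.

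Cd44 was at 143, 167 and 156 CPM in Acly controls and 138, 125 and 130 in knockouts, with a log2 fold change of -0.25 (edgeR adjusted p = 0.276). Cemip lay between 6.63 and 7.79 CPM in the 3 controls and was at 6.50, 2.96 and 4.26 in knockouts (log2 fold change -0.64, edgeR adjusted p = 0.304). Prg4 was at 664, 636 and 843 CPM in controls and 554, 579 and 478 in knockouts (log2 fold change -0.41, edgeR adjusted p = 0.250). In these 3 genes all knockouts lay below all controls, and for Cemip the nearest libraries were at 6.63 and 6.50 CPM. The other 5 superficial and synovial markers summed to 996 to 1052 CPM in controls and 324 to 821 in knockouts. Of all 6 markers, Prg4 included, 2 had a positive and 4 a negative log2 fold change, and none was called.

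Has2 was at 19.1, 27.1 and 25.9 CPM in Acly controls and 20.5, 11.2 and 17.0 in knockouts, with overlap (log2 fold change -0.56, edgeR adjusted p = 0.289). Hyal1, which fell in the LDH knockout, was at 19.2, 18.3 and 22.9 CPM in Acly controls and 21.3, 20.6 and 19.2 in knockouts. Its log2 fold change was 0.02 (95% interval -0.26 to 0.29, edgeR adjusted p = 0.949), and its sign turned with the scaling. Hyal2 was at 50.1, 47.9 and 39.4 CPM in controls and 48.2, 58.8 and 56.3 in knockouts (log2 fold change 0.25, 95% interval -0.02 to 0.52, edgeR adjusted p = 0.342).

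Whether the effect of the LDH knockout differed from that of the Acly knockout was tested in 1 fit of all 12 samples, where 0.161% of 14251 genes were called. No member passed, and 5 had an unadjusted p under 0.05, against 13% of all genes. The Acan effect was larger in the LDH set by 0.68 on the log2 scale (95% interval 0.28 to 1.08, edgeR adjusted p = 0.185), and DESeq2 called this difference (adjusted p = 0.0411). The range over the alternatives was 0.0411 to 0.393. For Hyal1 the difference was -0.53 (95% interval -0.85 to -0.21, edgeR adjusted p = 0.190). Has2 (1.03), Tnfaip6 (0.95) and Hapln1 (0.68) had positive differences, with adjusted p of 0.301, 0.338 and 0.335 from edgeR. A different effect of the knockouts on these genes was therefore not shown by edgeR, and age and line coincide with the knockout.

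The ratio of Acan to Vcan within a sample, in TPM, needs no scaling between samples. It was 23.2, 24.5 and 31.0 in LDH controls and 77.4, 90.5 and 59.3 in LDH knockouts. The mean log2 ratio differed by 1.52, without overlap (two-sided exact permutation p = 0.1, the smallest that 3 against 3 samples allow). For the Acly set it was 4.72, 3.90 and 4.89 in controls and 5.94, 18.9 and 9.99 in knockouts. Here the log2 difference was 1.21, also without overlap (exact permutation p = 0.1), and 0.78 without knockout replicate 2.

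Acan to Hapln1 was 3.64, 3.99 and 4.34 in LDH controls and 6.37, 6.03 and 6.06 in LDH knockouts, a log2 difference of 0.63 without overlap (exact permutation p = 0.1). Each LDH knockout lay above each control, so within a sample Acan was higher relative to its link protein. For the Acly set the ratio was 2.32, 1.72 and 2.13 in controls and 2.28, 4.57 and 3.14 in knockouts, and the groups overlapped (log2 difference 0.65, exact permutation p = 0.2). Without Acly knockout replicate 2 that difference was 0.39. No Y-linked setting was run for either ratio. LDH control replicate 3, of low Y-linked signal, was the highest LDH control in both.

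**Figure D4:**
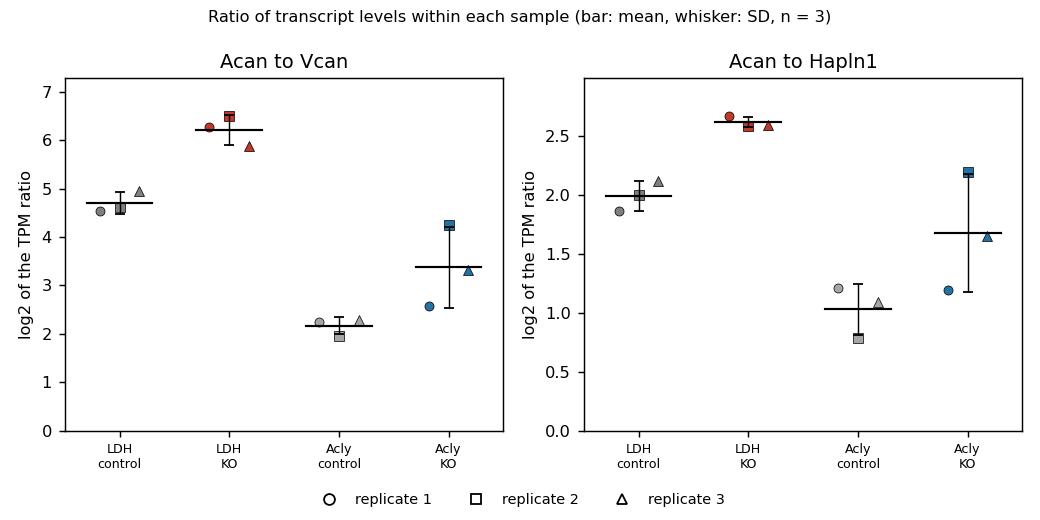
Log2 of the TPM ratio of Acan to Vcan (left) and of Acan to Hapln1 (right) in each sample, by group, with mean and SD (n = 3). Knockouts lie above their controls without overlap in both LDH panels and for Acan to Vcan in the Acly set, and the Acly groups overlap for Acan to Hapln1.

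The control groups themselves differed in most of these genes. Between Acly controls at E18.5 and LDH controls at postnatal day 5, 8 of 10 members were called, against 55% of 14251 genes, so the share is to be read against a high background. Of the 8, 6 were higher in the embryonic controls and 2 lower, against 29.4% and 25.7% of all genes. Values here are CPM scaled over all 12 samples. Age and mouse line cannot be told apart in this comparison.

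Vcan showed the largest difference of the members, at 253 ± 38.7 CPM in Acly controls and 34.6 ± 13.4 in LDH controls (log2 difference 2.87, SE 0.36). Tnfaip6 was at 22.5 ± 0.54 against 4.49 ± 2.05 CPM (2.33) and Has2 at 22.8 ± 4.01 against 4.82 ± 1.46 CPM (2.24). Hapln1 was at 366 ± 56.4 against 145 ± 31.7 CPM (1.33) and Cemip at 6.78 ± 0.55 against 3.35 ± 1.05 CPM (1.02). The adjusted p for these 5 genes was at most 0.0365 over all their alternatives (edgeR, DESeq2 and limma). Markers of other cells were also called higher in Acly controls: 10 of 10 for fibroblasts and perichondrium (median log2 difference 2.43), 8 of 8 for skeletal muscle (4.46), 8 of 8 for adipocytes (3.60), 6 of 6 for endothelial cells (2.58), 5 of 6 for superficial and synovial cells (1.92, a list that holds Prg4) and 6 of 8 for macrophages and white blood cells (1.58). Of the macrophage and white blood cell markers, 1 was called lower. Chondrocyte markers were called higher in 7 of 12 and lower in 1. Their part in the member differences was not tested.

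Acan differed little between the control groups, at 1087 ± 45.0 against 841 ± 111 CPM (0.37, edgeR adjusted p = 0.0274), and the call was lost in 4 of 18 alternatives, each leaving out 1 control (LDH replicate 2 or 3, Acly replicate 2 or 3). Without LDH control replicate 3 the Acan difference was 0.28 (edgeR adjusted p = 0.116). Hyal1 was lower in the embryonic controls, at 19.1 ± 2.28 against 39.2 ± 2.64 CPM (-1.04), as was Cd44 at 147 ± 10.8 against 191 ± 26.0 CPM (-0.37, edgeR adjusted p = 0.0114). Hyal2 (0.23, edgeR adjusted p = 0.104) and Prg4 (-0.16, adjusted p = 0.416) did not pass. Without scaling, the median of all genes moved by 0.17, 72.4% of the calls were higher in Acly controls in place of 53.3%, and Hyal2 was called in place of Cd44.

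Genes that act on the same matrix were taken from 4 further lists. Of 18 other hyaluronan and hyaladherin genes tested in the LDH set, 1 rose and 1 fell, where 1.43% and 1.07% of all genes did. Ptx3, which binds TSG-6 in the hyaluronan matrix, rose from 258 ± 34.9 to 458 ± 78.8 CPM (log2 fold change 0.83, edgeR adjusted p = 0.0196). Itih2, a heavy chain of the inter-alpha-inhibitor that Tnfaip6 transfers to hyaluronan, fell from 52.2 ± 5.29 to 27.9 ± 4.97 CPM (-0.90, edgeR adjusted p = 0.0101). Layn, a hyaluronan receptor, had a value of 0.65 and did not pass (edgeR adjusted p = 0.0551). Ptx3 lost its call in 6 of 16 alternatives (both Y-linked settings, the fit of all 12 samples, and without LDH knockout replicate 1 or 2 or LDH control replicate 3), with log2 fold changes of 0.69 to 0.95 over all 16 and adjusted p of 2.17e-07 to 0.270. Itih2 lost it in 3 (both Y-linked settings and without LDH control replicate 3), with -1.08 to -0.78 and adjusted p of 2.65e-08 to 0.153. Layn was called in 5 of 16, among them DESeq2 and the fit of all 12 samples, with adjusted p of 0.00251 to 0.265. None of 19 was called in the Acly set, where 3 had an unadjusted p under 0.05, against 15.8% of all genes (Hexa 0.20, Ptx3 0.56 and Has1 -0.50).

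edgeR called no aggrecan-cleaving protease or inhibitor in either set. Of 9 tested in the LDH set, 2 had an unadjusted p under 0.05 (19.6% of all genes did), and the same 2 were lower without overlap (12.5% of all genes were). They were Adamts5, an aggrecanase, with a log2 fold change of -0.54, and Mmp14, with -0.30 (edgeR adjusted p = 0.0864 and 0.0893). DESeq2 called both (adjusted p = 0.0366 and 0.0352), and over all alternatives the highest values were 0.284 and 0.279. Mmp13, a collagenase, came next, with a log2 fold change of 0.32 (edgeR adjusted p = 0.313). Of 11 tested in the Acly set, 4 were lower without overlap (11.3% of all genes were). The 3 with an unadjusted p under 0.05, against 15.8% of all genes, were Mmp13 (-1.09), Mmp3 (-2.24) and Adamts1 (-0.46), with adjusted p of 0.0694, 0.119 and 0.159 from edgeR. DESeq2 called all 3 of these (adjusted p = 2.08e-07, 0.0234 and 0.00549). Without Acly knockout replicate 2 edgeR called Mmp13 (-0.99) and Mmp3 (-2.99), as did the fit of all 12 samples, and Mmp13 was also called without a filter. Over all alternatives the adjusted p of the 3 genes reached 0.359, 0.538 and 0.663.

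The sulfated chains of aggrecan are built by another set of enzymes. Of 22 tested in the LDH set, 2 were called, against 2.49% of all genes. Papss2, which makes the sulfate donor, rose from 138 ± 13.9 to 222 ± 52.8 CPM (log2 fold change 0.69, edgeR adjusted p = 0.0473), and Chsy1, which extends chondroitin chains, fell from 131 ± 10.8 to 72.8 ± 1.27 CPM (-0.85, edgeR adjusted p = 0.00194). Xylt1, which starts the chain on the core protein, had a value of 0.74 and did not pass (edgeR adjusted p = 0.0547), but was called in 5 of 16 alternatives, among them DESeq2, no filter and the fit of all 12 samples (adjusted p of 0.000735 to 0.188 over all). Papss2 lost its call in 9 of 16 alternatives, with log2 fold changes of 0.48 to 0.91 over all. Chsy1 lost it in 1 of 16, with the Y-linked covariate (log2 fold change -0.81, adjusted p = 0.121, from 6.21e-16 over all). In the Acly set none of 22 was called, with the lowest p for Impad1 (-0.36), Csgalnact1 (0.29) and Chpf (0.36), and 4 had an unadjusted p under 0.05, against 15.8% of all genes.

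The Sox trio, transcription factors that drive Acan and other cartilage genes, was tested as 3 genes. In the LDH set Sox9 (0.40), Sox5 (0.30) and Sox6 (0.19) were each higher in all 3 knockouts without overlap (11.9% of all genes were), and none passed (edgeR adjusted p = 0.0650, 0.138 and 0.289). Sox9 was at 581 ± 37.9 CPM in controls and 767 ± 77.7 in knockouts, and DESeq2 was the only one of 16 alternatives to call it (adjusted p = 0.00274, with values up to 0.286 under the others). Acly knockouts gave 0.25 for Sox9, -0.28 for Sox5 and -0.10 for Sox6, and none passed. Of the 3, 1 had an unadjusted p under 0.05, against 15.8% of all genes. In the same set 1 was lower without overlap, against 11.3% of all genes.

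Among 10574 genes of at least 5 CPM on average, those most like Acan over the 12 samples were sought by the root mean square difference of centred log2 CPM. The closest was Pcolce2, an enhancer of procollagen processing, at 0.11, followed by F13a1 (0.22), Papss2 (0.22), Tinagl1 (0.23) and Sbsn (0.23), where the median over all genes was 0.56. For Hapln1 close genes were 1190002N15Rik and Klhl13 (0.14 each), Susd5 (0.16) and Prim2 (0.16), against a median of 0.66. Libraries and their scaling are common to all genes, and the LDH and Acly sets differ in age and line, which enters each distance.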

How the data were processed

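Polyadenylated RNA of 12 samples was sequenced. Per the submitters' processing notes, HISAT2 2.0.4 and mm9 were used; the counting program, annotation and strand setting are not given in the sources used here. The authors deposited expected counts per gene, of which 7.32% to 8.16% of a sample's values, zeros included, were not whole, and TPM values (transcripts per 1000000). The 12 FPKM columns and 12 average columns were not used.

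The test was made on rounded expected counts by edgeR 4.0.16, run under R 4.3.3 (TMM, filterByExpr, two-sided quasi-likelihood F test, Benjamini-Hochberg adjustment over all genes tested, threshold 0.05). Each knockout was compared with its control over 6 samples, and both effects and both control groups in 1 fit of 12 samples. The standard error is the log2 fold change divided by the square root of F. TPM ratios were compared by two-sided exact permutation over samples. Members and gene lists were chosen with earlier results of these data known. Named are the 10 members, listed genes past the threshold or, where fewer than 3 passed, the 3 of lowest p, the 5 genes most like Acan and Hapln1, and the targeted genes. One gene that this rule selects is not reported here. Naa80, Hyal3 and Tpr were added because they overlap members. Scaling Acan and Hapln1 by the chondrocyte markers, and the superficial markers without Prg4, were added after the values were seen. Alternatives were DESeq2 1.42.0, limma 3.58.1 on log2(TPM + 0.5) or log2(TPM + 0.1), other scaling, no filter, a replicate block, Y-linked signal and leaving out each replicate. Y-linked signal was used only where a knockout was compared with its own control, and not for the TPM ratios. The scripts were tested on simulated data. No 2 samples of a group agreed within sampling noise. Coordinates of promoters are from RefSeq GRCm38.p6, not from the build of the files.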

Additional observations from a re-analysis of the deposited data

Results flagged for a closer look

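Among the members and the named genes of the 4 matrix lists, Chsy1, a chondroitin chain enzyme, was called in the test of the difference between its effects in the LDH and Acly sets, at -0.73 on the log2 scale (95% interval -0.96 to -0.50, edgeR adjusted p = 0.0187). It fell to 55.5% of the control level in the LDH knockout and was at 93.2% in the Acly knockout, where it did not pass (edgeR adjusted p = 0.547). The call of the difference was lost in 5 of 18 alternatives, with adjusted p from 2.19e-08 to 0.170 and log2 differences from -0.81 to -0.66 over all 18: the replicate block, and the omission of LDH knockout replicate 1 or 2 or of Acly control replicate 1 or 3. None of the 18 alternatives used the Y-linked signal. In the LDH comparison alone Chsy1 lost its call with that covariate (log2 fold change -0.81, edgeR adjusted p = 0.121). Age and mouse line coincide with the difference and cannot be told apart from it.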

How the results depend on the processing

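In the LDH comparison 332 genes and 2 members were called. DESeq2 called 901 genes and 4 members (Acan, Hapln1, Hyal1 and Prg4), the Y-linked covariate left 3 genes and 0 members, and the samples of low Y-linked signal left 15 and 0. Both Y-linked settings had fewer residual degrees of freedom, as did the replicate block, with which 362 genes and 2 members were called. The cause of these counts was not tested. Leaving out 1 replicate gave 95 genes (without LDH control replicate 3) to 1068 (without LDH knockout replicate 3), and 1 to 2 members. In the Acly comparison 19 genes and 0 members were called, against 247 and 2 with DESeq2, 32 genes without a filter, 31 with all 12 samples in the fit, 11 without scaling, 6 with the Y-linked covariate, and 0 (without Acly control replicate 1) to 132 (without Acly knockout replicate 2) with 1 replicate left out. The difference of effects was called for 23 genes and 0 members, against 213 and 1 with DESeq2, and 5 (without Acly control replicate 3) to 143 (without LDH knockout replicate 3) with 1 replicate left out. The cause was not tested. For the control comparison, with 7844 genes and 8 members called, the number of genes lay between 6705 and 8361 and that of members between 7 and 8 over all alternatives.

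Samples with the same replicate number did not deviate together (r of -0.22 to 0.05 over both sets), so the numbers were not taken as pairs. With the replicate block 8 genes were called in the Acly comparison, 5 for the difference of effects and 362 in the LDH comparison, and the members called were the same as without it. Of the 12 samples, 1 correlated best with the sample of its own number in the other group.

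Signs turned for values near 0 or widely scattered. In the LDH set these were Vcan (0.59 and 0.43) and Hyal2 (-0.14 and -0.089) with the Y-linked covariate and the samples of low signal, Cd44 (-0.021 without LDH knockout replicate 1, -0.028 without LDH control replicate 3, up to 0.16 when 1 replicate was left out) and Tnfaip6 (-0.13 without LDH control replicate 2, up to 0.55). The Acly set gave Hyal1 (-0.030 without scaling, -0.070 and -0.071 with limma at a pseudocount of 0.5 and 0.1, -0.045 to 0.12 when 1 replicate was left out) and Hapln1 (-0.19 to 0.11). For the difference of effects they were Prg4 (0.031 with limma, -0.17 to 0.18) and Cemip (-0.23 to 0.39), and between control groups Prg4 (0.011 without scaling, 0.022 with limma, -0.32 to 0.035). Of the values of single genes under an alternative, 961 kept direction and side of the threshold, 38 lost the call, 30 gained it and 31 changed sign. In the LDH set depth limits Cemip, Has2 and Tnfaip6 most, the members of fewest counts.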
